A study of Mus musculus with 9 samples.

Results

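Genes that supply leukemia cells with amino acids, and the stress genes that respond when amino acids run short, were described in 3 populations of mouse leukemia cells, namely MA9-c-Kit- cells, MA9-c-Kit+ cells and a population called MA9-IL-34. A list of 38 gene symbols was taken: 13 amino acid transporters, 7 enzymes of serine and one-carbon metabolism, 8 enzymes of asparagine, proline, transamination and transsulfuration, 8 ATF factors and stress effectors, and 2 enzymes that charge tRNA. The symbols matched 39 of the 55536 rows of the expression table, since Ddit3 has a second row that was listed at 0 in all 9 libraries. The filter on low values (at least 1 TPM in at least 3 libraries) left 33 of the 38 genes among the 13722 tested, and none of the 33 reached 1 TPM in a single group only. The genes that were not tested were Slc1a4, Slc7a11, Cbs, Cth and Trib3, whose highest values in any library were 0.56, 0.31, 0.38, 1.30 and 0.99 TPM.

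All 9 libraries came from mouse AML cells that carry the MLL-AF9 fusion with GFP and a retrovirus with BFP, recovered from the bone marrow of C57BL/6J mice, 6 to 8 weeks old, on day 18 after transplantation of 100000 cells without irradiation. MA9 cells carry the blank retrovirus and were sorted by c-Kit, the surface receptor used as a marker of leukemia stem cells, which gave MA9-c-Kit- cells, without the receptor, and MA9-c-Kit+ cells, with it. In MA9-IL-34 cells the retrovirus expresses the cytokine IL-34, and these are labelled as c-Kit+ as well. Each group had 3 libraries. Whether the replicates are separate mice is not stated, and if they are not, a p-value here reflects technical spread alone. IL-34 and a difference between the infected pools of leukemia cells cannot be told apart. In RNA of bulk cells, fewer cells of a type and less RNA per cell also cannot be told apart.

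Cells take up amino acids through membrane carriers of the Slc families, and they make serine from a glycolytic intermediate through Phgdh, Psat1 and Psph. Serine is then split by Shmt1 in the cytosol and Shmt2 in mitochondria into glycine and a carbon unit on folate, which Mthfd enzymes pass on for the synthesis of purines and thymidylate. When amino acids are scarce, uncharged tRNA activates the kinase Gcn2, phosphorylation of eIF2 favors translation of the transcription factor Atf4, and Atf4 with its C/EBP partners induces Asns, Psat1, Chac1, Trib3, tRNA synthetases and transporters. Because this control acts largely on translation, the mRNA of Atf4 need not follow the activity of the protein.

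Asns (asparagine synthesis), Aldh18a1 (the precursor of proline), Psat1 (serine synthesis) and the folate-loading enzymes Shmt1 and Shmt2 were higher in both c-Kit+ groups relative to MA9-c-Kit- cells, a carrier of cationic amino acids (Slc7a7) and a restraint of mTORC1 (Ddit4) were lower, and the ATF factors did not pass the test. Of the 33 genes, 8 rose and 2 fell in MA9-c-Kit+ against MA9-c-Kit- cells, at a fold of 2 or more with an adjusted p under 0.05 (limma on log2(TPM + 1), Benjamini-Hochberg adjustment over all genes tested), that is 24.2% and 6.06% of the members where 5.66% and 9.15% of all genes passed. Against the same MA9-c-Kit- libraries, 6 rose and 3 fell in MA9-IL-34 cells, or 18.2% and 9.09%, beside 11.3% and 12.7% of all genes. In MA9-IL-34 relative to MA9-c-Kit+ cells, 0 rose and 2 fell, or 6.06%, beside 3.86% higher and 3.38% lower over all genes, and at an unadjusted p under 0.05 (limma) the numbers were 2 higher and 5 lower, beside 14.4% and 11.6% of all genes. The median log2 difference of the 33 members was 0.48, 0.57 and -0.04 in these comparisons, and that of all tested genes was 0.03, 0.06 and 0.01. In all, 13 members passed in at least 1 comparison and 20 in none. The members were chosen with earlier results of these data known, so their shares beside those of all genes describe the list and do not test it.

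The comparisons of MA9-c-Kit+ and of MA9-IL-34 cells with MA9-c-Kit- cells share the MA9-c-Kit- libraries, so they are given side by side and not as independent results. Aldh18a1, Asns, Psat1, Shmt1 and Shmt2 were higher and Ddit4 and Slc7a7 lower in both. No member passed in all 3 comparisons. Libraries of the groups did not overlap for 12 members that were higher and 4 that were lower in MA9-c-Kit+ against MA9-c-Kit- cells, where 23.2% and 22.4% of all genes were so separated. For MA9-IL-34 against MA9-c-Kit- cells they were 16 and 6 (34% and 30% of all genes), and for MA9-IL-34 against MA9-c-Kit+ cells 2 and 6 (18.4% and 15.8% of all genes).

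**Figure D1:**
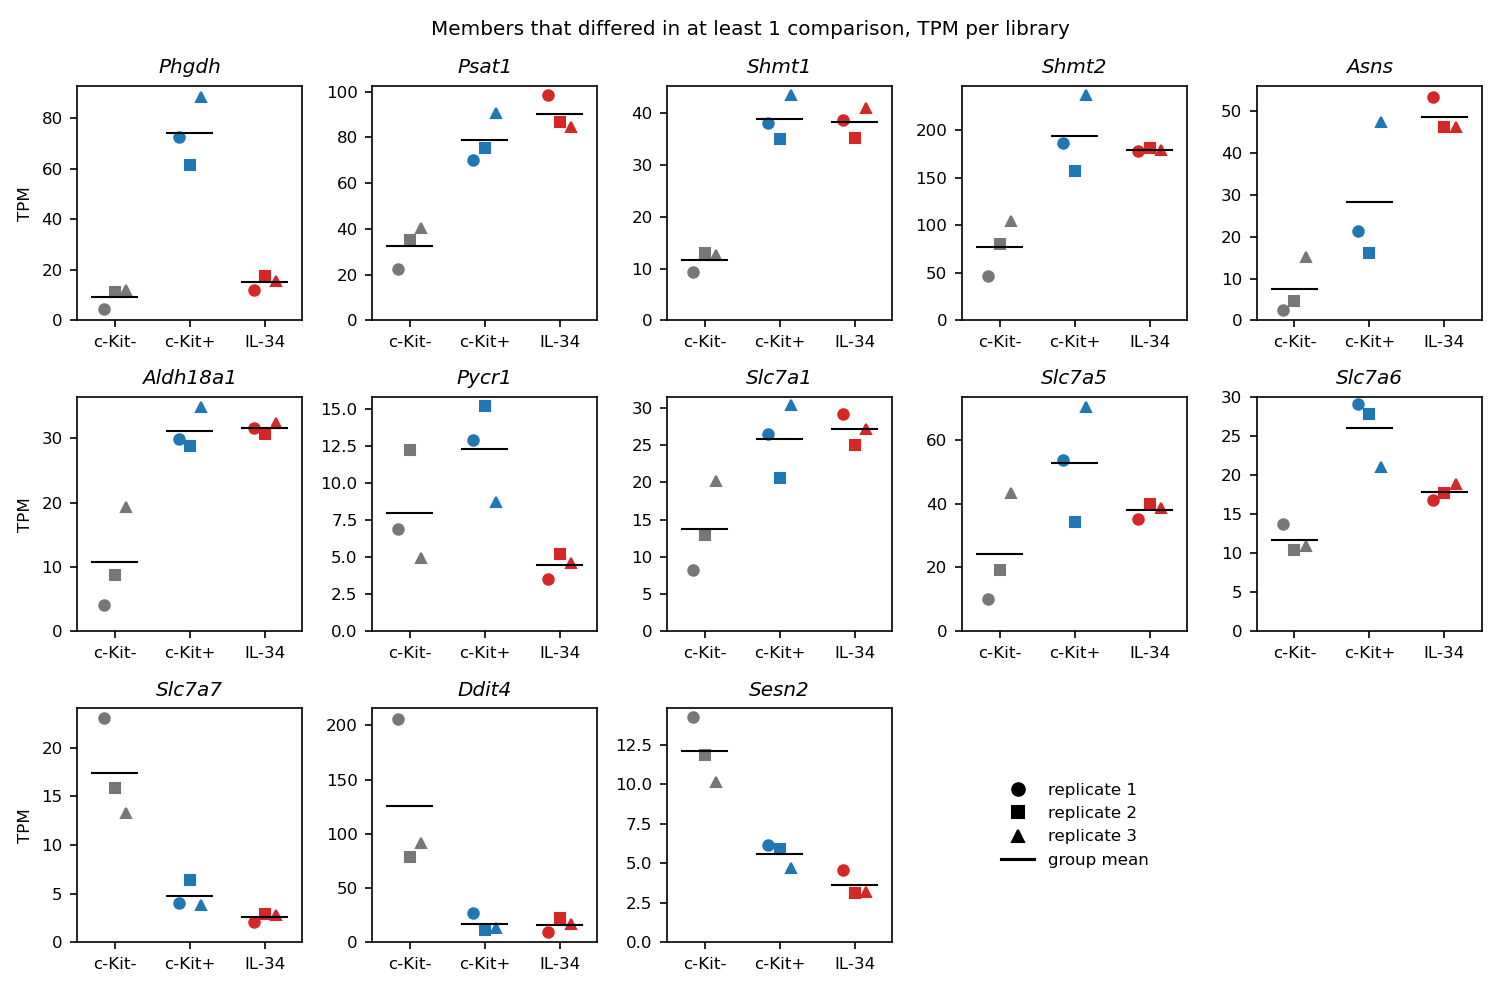
TPM (y axis, from 0) of the 13 members that differed in at least 1 comparison, in each library of the 3 groups (x axis). Circles, squares and triangles are replicates 1, 2 and 3 and black lines are group means. Shmt1 was between 9.34 and 13.1 TPM in the MA9-c-Kit- libraries and above 35 TPM in the 6 other libraries, whereas Phgdh was above 60 TPM only in MA9-c-Kit+ cells.

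The facts of the libraries that touch these results were as follows. Kit was at 2.33 ± 0.645 TPM (mean ± SD, n = 3 here and below) in MA9-c-Kit-, 108 ± 33.1 TPM in MA9-c-Kit+ and 105 ± 12.3 TPM in MA9-IL-34 cells. Summed TPM of 15 genes of monocytes and macrophages were 9736 to 17070, 1289 to 3584 and 594 to 689 in the same order, with none of the 15 at 0 in all libraries, and of the 14 tested 11 fell in MA9-c-Kit+ and 13 in MA9-IL-34 relative to MA9-c-Kit- cells and 8 in MA9-IL-34 relative to MA9-c-Kit+ cells (limma). The sums of 12 genes of dividing cells were 887 to 1343, 1747 to 2324 and 2161 to 2557, of which 4, 7 and 0 rose in these comparisons (12, 12 and 0 at an unadjusted p under 0.05, limma). Summed TPM of 11 neutrophil genes were 868 to 1113, 199.8 to 366 and 214 to 368, with none at 0 throughout. Their single genes were split. Of the 9 compared, 1 rose and 3 fell in MA9-c-Kit+ and 2 rose and 2 fell in MA9-IL-34 relative to MA9-c-Kit- cells. Between the c-Kit+ groups 0 passed (limma). Of the 10 genes of mast cells, basophils and eosinophils 1 was at 0 in all libraries, and their sums were 21.0 to 40.6, 51.2 to 79.9 and 352 to 485 TPM, so that MA9-IL-34 cells were the highest. Of the 6 of these that were tested, 1 rose in MA9-c-Kit+ and 4 in MA9-IL-34 relative to MA9-c-Kit- cells and 3 in MA9-IL-34 relative to MA9-c-Kit+ cells (limma). MA9-c-Kit- replicate 3 stood apart, since 9 erythroid genes summed to 2462 TPM in it and to at most 53.8 TPM in any other library, with the globin gene Hbb-bs at 1031 TPM. MA9-c-Kit+ replicate 2 had the lowest share of mitochondrial TPM, at 5.10% against 8.79% to 11.1% elsewhere. The counts of called genes of these cell types stand beside the shares of all genes given above. At an unadjusted p under 0.05 (limma), 24.6% of all genes were higher in MA9-c-Kit+ and 30.3% in MA9-IL-34 relative to MA9-c-Kit- cells. The part of these cell types in the results was not tested.

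Without MA9-c-Kit- replicate 3, all the calls of members against MA9-c-Kit- cells remained, and 3 more passed in each comparison. MA9-c-Kit+ cells then had 10 members higher and 3 lower, and MA9-IL-34 cells 8 higher and 4 lower. Without MA9-c-Kit+ replicate 2 the calls of members against MA9-c-Kit- cells remained as well, Atf5, Sesn2 and Slc7a1 were added, and Pycr1 was no longer called between the c-Kit+ groups.

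The first step of serine synthesis set MA9-c-Kit+ cells apart from both other groups. Phgdh encodes phosphoglycerate dehydrogenase, the first enzyme of the route (ENSMUSG00000053398, chromosome 3 of GRCm38 from 98313170 to 98339990, minus strand). It was at 4.33, 11.1 and 12.1 TPM in MA9-c-Kit- replicates 1, 2 and 3, at 72.4, 61.3 and 88.4 TPM in MA9-c-Kit+ replicates 1, 2 and 3, and reached 12.1, 17.6 and 15.7 TPM in MA9-IL-34 replicates 1, 2 and 3. The MA9-c-Kit+ libraries lay far above all others, and the other groups lay next to each other. The mean of MA9-c-Kit+ cells was 8.07-fold that of MA9-c-Kit- cells (log2 difference of TPM + 1 of 2.97, standard error 0.32, adjusted p = 0.000237, limma). In MA9-IL-34 cells Phgdh was 4.89-fold lower than in MA9-c-Kit+ cells (log2 difference -2.22, standard error 0.32, adjusted p = 0.00217, limma). The difference of MA9-IL-34 from MA9-c-Kit- cells did not pass (0.76, 95% interval 0.03 to 1.49, adjusted p = 0.0797, limma).

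Psat1, the aminotransferase of the next step, did not share this pattern. Its values were 22.7, 35.0 and 40.4 TPM in MA9-c-Kit-, 70.1, 75.5 and 90.5 TPM in MA9-c-Kit+ and 98.7, 87.0 and 84.7 TPM in MA9-IL-34 replicates 1, 2 and 3. Both c-Kit+ groups lay above MA9-c-Kit- cells without overlap and overlapped each other. Relative to MA9-c-Kit- cells the log2 difference was 1.27 in MA9-c-Kit+ (adjusted p = 0.00142, limma) and 1.47 in MA9-IL-34 cells (standard error 0.20, adjusted p = 0.000348, limma). Between the c-Kit+ groups it was 0.20 (95% interval -0.25 to 0.65, adjusted p = 0.597, limma). Psph, the phosphatase that finishes serine, ranged from 8.03 to 19.4 TPM over the 9 libraries and its largest difference, 0.67 in MA9-c-Kit+ against MA9-c-Kit- cells (adjusted p = 0.0335, limma), stayed under a fold of 2. Exons of Psph overlap those of Cct6a on the opposite strand over 452 bases. Cct6a was at 85.3 to 213.8 TPM, and its part in the values of Psph was not tested. The ratio of Phgdh to Psat1 in TPM, chosen after the values were seen and therefore not tested, was 0.191, 0.317 and 0.299 in MA9-c-Kit-, 1.03, 0.812 and 0.977 in MA9-c-Kit+ and 0.123, 0.202 and 0.185 in MA9-IL-34 replicates 1, 2 and 3. Transcripts of the first and second enzymes were thus at near equal levels per length in MA9-c-Kit+ cells and far from equal in the other groups.

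**Figure D2:**
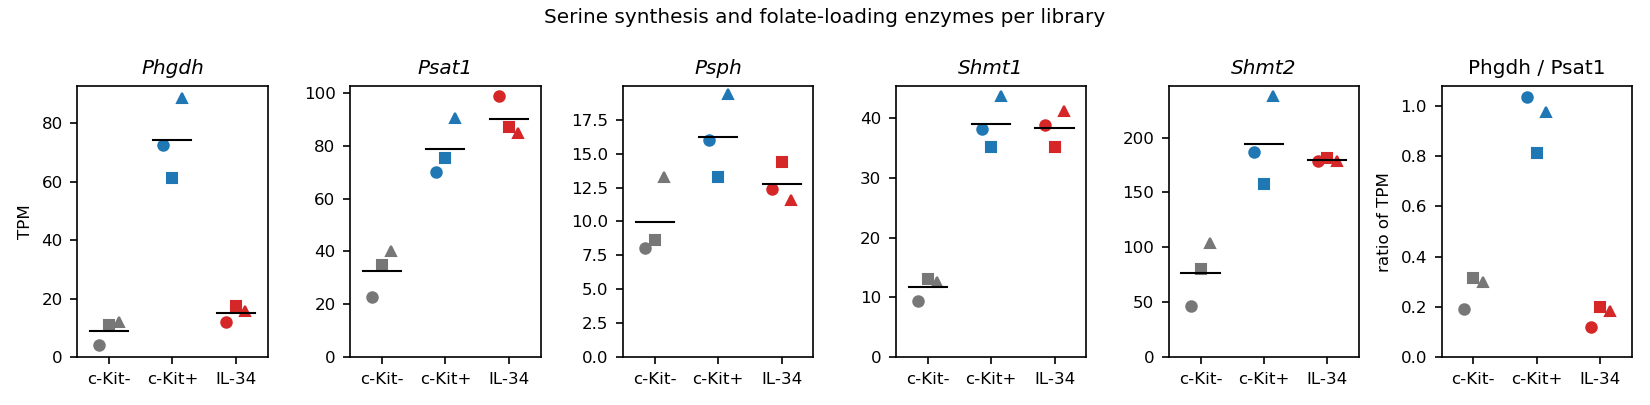
TPM (y axis, from 0) of the serine synthesis genes Phgdh, Psat1 and Psph and of Shmt1 and Shmt2 in each library (x axis, by group; circles, squares and triangles are replicates 1, 2 and 3, black lines are means), with the ratio of Phgdh to Psat1 at the right. The ratio was 0.812 to 1.03 in MA9-c-Kit+ cells and at most 0.317 in the other 6 libraries.

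Both hydroxymethyltransferases that load the carbon of serine onto folate were higher in c-Kit+ cells of either kind. Shmt1, the cytosolic enzyme (ENSMUSG00000020534, chromosome 11 from 60788104 to 60811718), was at 9.34, 13.1 and 12.6 TPM in MA9-c-Kit-, 38.1, 35.1 and 43.6 TPM in MA9-c-Kit+ and 38.7, 35.2 and 41.1 TPM in MA9-IL-34 replicates 1, 2 and 3. Its libraries formed a low and a high level with a wide gap between them. The log2 difference from MA9-c-Kit- cells was 1.66 in MA9-c-Kit+ (adjusted p = 9.05e-05, limma) and 1.65 in MA9-IL-34 cells (standard error 0.15, adjusted p = 3.79e-05, limma), and between the c-Kit+ groups it was -0.02 (95% interval -0.36 to 0.32). Exons of Shmt1 overlap those of Smcr8 on the opposite strand over 184 bases, and the library kit does not mark strand. Smcr8 was at 18.8 to 32.0 TPM, and its part in the result was not tested.

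Shmt2, the mitochondrial enzyme, was the most abundant of the 7 by level per length. It was at 46.7, 80.04 and 104.5 TPM in MA9-c-Kit-, 187, 158 and 237 TPM in MA9-c-Kit+ and 178, 181 and 179 TPM in MA9-IL-34 replicates 1, 2 and 3. The MA9-IL-34 libraries were nearly alike, and the MA9-c-Kit- libraries spread widely below them. The log2 difference from MA9-c-Kit- cells was 1.37 in MA9-c-Kit+ (adjusted p = 0.00365, limma) and 1.28 in MA9-IL-34 cells (standard error 0.26, adjusted p = 0.0033, limma), and without MA9-c-Kit- replicate 1 the latter was 0.97, under a fold of 2. Mthfd1l, which releases formate in mitochondria, ranged from 28.1 to 68.7 TPM, and Mthfd2, the mitochondrial dehydrogenase of the same path, from 12.4 to 33.1 TPM. Against MA9-c-Kit- cells both had log2 differences with an adjusted p under 0.05 and a fold under 2, at 0.74 and 0.62 in MA9-c-Kit+ and 0.83 and 0.67 in MA9-IL-34 cells.

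Summed over the 7 genes of serine and one-carbon metabolism, the level was 132 to 239 TPM in MA9-c-Kit-, 407 to 573 TPM in MA9-c-Kit+ and 412 to 427 TPM in MA9-IL-34 cells. Of the 7, 4 rose in MA9-c-Kit+ cells (median log2 difference 1.27) and 3 in MA9-IL-34 cells (median 0.83) against MA9-c-Kit- cells, 0 fell, also at an unadjusted p under 0.05 (limma), and Phgdh alone was called between the c-Kit+ groups. Beside these, 5.66% of all genes rose and 9.15% fell in MA9-c-Kit+ cells, and 11.3% and 12.7% in MA9-IL-34 cells. At an unadjusted p under 0.05 (limma), 22.9% and 26.1% of all genes were lower.

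Asns and Aldh18a1 were higher in both c-Kit+ groups, and the libraries of MA9-c-Kit- cells differed much among themselves. Asns encodes asparagine synthetase, a textbook target of Atf4 (ENSMUSG00000029752, chromosome 6 from 7675169 to 7693254, minus strand). It was at 2.40, 4.69 and 15.2 TPM in MA9-c-Kit-, 21.3, 16.2 and 47.3 TPM in MA9-c-Kit+ and 53.4, 46.2 and 46.1 TPM in MA9-IL-34 replicates 1, 2 and 3. Replicate 3 was the highest library of both MA9 groups, and the MA9-IL-34 libraries were close together. The mean of MA9-IL-34 cells was 6.52-fold that of MA9-c-Kit- cells (log2 difference 2.86, standard error 0.54, adjusted p = 0.00227, limma). In MA9-c-Kit+ cells the mean was 3.80-fold (log2 difference 1.96, adjusted p = 0.0198, limma), a call that did not hold when MA9-c-Kit- replicate 1 (adjusted p = 0.0662), MA9-c-Kit- replicate 2 (0.0639) or MA9-c-Kit+ replicate 3 (0.0567) was left out, and that had an adjusted p of 0.00235 without MA9-c-Kit- replicate 3. Libraries of the same number gave 8.87, 3.45 and 3.10 times more Asns in MA9-c-Kit+ than in MA9-c-Kit- cells. The difference of 0.90 in MA9-IL-34 relative to MA9-c-Kit+ cells did not pass (95% interval -0.32 to 2.13, adjusted p = 0.345, limma).

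Aldh18a1, which makes the precursor of proline and ornithine from glutamate, was at 4.09, 8.81 and 19.4 TPM in MA9-c-Kit-, 29.9, 28.9 and 34.9 TPM in MA9-c-Kit+ and 31.7, 30.6 and 32.4 TPM in MA9-IL-34 replicates 1, 2 and 3. The c-Kit+ groups lay on 1 level and MA9-c-Kit- replicate 3 came nearest to it. The log2 difference from MA9-c-Kit- cells was 1.67 in MA9-c-Kit+ (adjusted p = 0.0104, limma) and 1.69 in MA9-IL-34 cells (standard error 0.40, adjusted p = 0.00693, limma). Pycr1, which finishes proline in mitochondria, was at 6.89, 12.2 and 4.94 TPM in MA9-c-Kit-, 12.9, 15.3 and 8.72 TPM in MA9-c-Kit+ and 3.52, 5.24 and 4.60 TPM in MA9-IL-34 replicates 1, 2 and 3. It was lower in MA9-IL-34 cells, with no overlap with MA9-c-Kit+ cells (log2 difference -1.27, standard error 0.31, adjusted p = 0.0273, limma). This call did not hold when a library of these groups other than MA9-c-Kit+ replicate 3 was left out (adjusted p from 0.0602 to 0.113).

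The transaminases did not pass the test. Got1, the cytosolic aspartate transaminase, ranged from 14.2 to 40.4 TPM with a log2 difference of 0.83 in MA9-IL-34 relative to MA9-c-Kit- cells (adjusted p = 0.0173, limma, fold under 2), Got2, its mitochondrial counterpart, from 97.1 to 160.6 TPM, and Gpt2, the mitochondrial alanine transaminase, from 0.87 to 3.43 TPM. Cbs and Cth, which make cysteine by transsulfuration, were among the genes too low to be tested. Of the 6 tested genes of this group, 2 rose in each comparison with MA9-c-Kit- cells and 0 fell (limma, also 0 at an unadjusted p under 0.05). Of all genes, 5.66% rose and 9.15% fell in MA9-c-Kit+ cells, and 11.3% and 12.7% in MA9-IL-34 cells. At an unadjusted p under 0.05 (limma), 22.9% and 26.1% of all genes were lower.

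Promoters of the called members that hold the core of the C/EBP-ATF response element, the site that Atf4 and its partners bind, are shown because the list is named for this factor. The letters TGATGNAA, where N is any base, were searched on both strands of RefSeq promoters (GRCm38.p6, 250 bases before to 50 after the start site, 300 in all). Of 41 promoters of the members 10 (24.4%) had a match, beside 1304 of 32851 promoters of all genes (3.97%). Counted by gene, 9 of the 33 members found in the promoter table (27.3%) had a match. The list was drawn up with known targets of Atf4 in it, so these shares are not a finding of these data. Among the 12 called members found, 3 had a match. Capitals mark the matches in the promoters of Asns (chr6:7693160-7693459), Pycr1 (chr11:120643699-120643998) and Slc7a7 (chr14:54417895-54418194), all on the minus strand and written 5′ to 3′.
Asns: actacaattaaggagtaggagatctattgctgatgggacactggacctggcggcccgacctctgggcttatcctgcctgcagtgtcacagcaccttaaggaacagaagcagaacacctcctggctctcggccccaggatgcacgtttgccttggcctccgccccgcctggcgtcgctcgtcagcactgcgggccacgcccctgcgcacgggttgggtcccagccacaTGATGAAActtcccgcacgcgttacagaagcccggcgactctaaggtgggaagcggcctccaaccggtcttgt
Pycr1: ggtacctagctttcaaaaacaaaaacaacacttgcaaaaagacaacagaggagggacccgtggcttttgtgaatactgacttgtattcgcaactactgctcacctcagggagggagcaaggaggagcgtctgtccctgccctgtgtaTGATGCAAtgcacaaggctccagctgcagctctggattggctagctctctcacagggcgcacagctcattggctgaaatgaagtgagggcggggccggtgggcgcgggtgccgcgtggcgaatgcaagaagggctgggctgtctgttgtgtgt
Slc7a7: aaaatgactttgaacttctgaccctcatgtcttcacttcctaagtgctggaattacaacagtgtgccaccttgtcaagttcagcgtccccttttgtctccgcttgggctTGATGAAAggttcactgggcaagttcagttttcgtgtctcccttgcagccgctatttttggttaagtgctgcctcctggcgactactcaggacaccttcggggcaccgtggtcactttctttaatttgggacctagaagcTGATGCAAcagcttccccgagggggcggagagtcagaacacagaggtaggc
The match of Asns begins 23 bases before the start site and that of Pycr1 103 bases before it. Slc7a7 has 5 promoters in the table, 2 of them with a match, and the one shown holds 2 matches, which begin 141 bases and 1 base before the start. The other promoter overlaps it, and its match, 243 bases before its own start, is the same site as the second of these. That site was therefore counted in 2 of the 10 promoters with a match. These 3 genes did not share a direction: against MA9-c-Kit- cells Asns rose and Slc7a7 fell in MA9-IL-34 cells, while Pycr1 passed only against MA9-c-Kit+ cells. Chac1, Got1, Aars, Slc1a4, Slc7a11 and Trib3 were the other members with a match. The last 3 of these were too low to be tested, and the others did not pass in any comparison. The match is a description of these letters and was not tested as a site.

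Among the transporters, single members moved in opposite directions while the sum of the 13 differed little, at 444 to 510 TPM in MA9-c-Kit-, 503 to 535 TPM in MA9-c-Kit+ and 452 to 480 TPM in MA9-IL-34 cells. The carriers that exchange cationic amino acids showed both directions. Slc7a7, a subunit of the exporter of cationic amino acids (y+LAT1; ENSMUSG00000000958, chromosome 14 from 54369442 to 54417780, minus strand), was at 23.0, 15.9 and 13.3 TPM in MA9-c-Kit-, 4.05, 6.37 and 3.87 TPM in MA9-c-Kit+ and 2.05, 2.87 and 2.77 TPM in MA9-IL-34 replicates 1, 2 and 3. The 3 groups did not overlap in any pair. Its log2 difference from MA9-c-Kit- cells was -1.66 in MA9-c-Kit+ (adjusted p = 0.00107, limma) and -2.34 in MA9-IL-34 cells (standard error 0.24, adjusted p = 8.13e-05, limma), and the difference of -0.68 between the c-Kit+ groups did not pass (adjusted p = 0.113, limma). The summed genes of monocytes and macrophages given above had the same order of groups as Slc7a7. Their highest library was replicate 2 in both MA9 groups, and that of Slc7a7 was replicate 1 of MA9-c-Kit- and replicate 2 of MA9-c-Kit+ cells. The part of these cells in the result was not tested. Exons of Slc7a7 overlap those of Oxa1l on the opposite strand over 232 bases, and Oxa1l was at 65.5 to 85.1 TPM, whose part in the result was not tested either.

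Slc7a6, a close relative that serves the same exchange (y+LAT2), had the opposite direction, at 13.7, 10.5 and 10.9 TPM in MA9-c-Kit-, 29.1, 27.8 and 21.1 TPM in MA9-c-Kit+ and 16.9, 17.7 and 18.9 TPM in MA9-IL-34 replicates 1, 2 and 3. The groups were separate, with MA9-IL-34 cells between the others. The log2 difference was 1.08 in MA9-c-Kit+ relative to MA9-c-Kit- cells (standard error 0.16, adjusted p = 0.00113, limma), 0.9961 and so under the fold of 2 without MA9-c-Kit+ replicate 1. MA9-IL-34 cells differed by 0.57 from MA9-c-Kit- cells (adjusted p = 0.0156, limma, fold under 2) and by -0.51 from MA9-c-Kit+ cells (adjusted p = 0.074, limma). Slc7a1, the importer of arginine and lysine, was at 8.30, 12.9 and 20.1 TPM in MA9-c-Kit-, 26.5, 20.6 and 30.4 TPM in MA9-c-Kit+ and 29.1, 25.0 and 27.2 TPM in MA9-IL-34 replicates 1, 2 and 3. All c-Kit+ libraries lay above MA9-c-Kit- replicate 3, by the smallest margin in MA9-c-Kit+ replicate 2. Its log2 difference of 1.01 in MA9-IL-34 relative to MA9-c-Kit- cells passed (standard error 0.27, adjusted p = 0.0133, limma) and that of 0.92 for MA9-c-Kit+ cells stayed under the fold of 2 (adjusted p = 0.0255, limma). Without MA9-c-Kit- replicate 1 the former was 0.71, and without MA9-IL-34 replicate 1 it was 0.95.

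Slc7a5, the importer of leucine and other large neutral amino acids, was at 10.2, 19.1 and 43.3 TPM in MA9-c-Kit-, 53.6, 34.4 and 70.3 TPM in MA9-c-Kit+ and 35.3, 39.9 and 38.6 TPM in MA9-IL-34 replicates 1, 2 and 3. MA9-c-Kit- replicate 3 overlapped both other groups. MA9-c-Kit+ cells had a log2 difference of 1.27 from MA9-c-Kit- cells (standard error 0.44, adjusted p = 0.0478, limma). The call was lost without any library other than MA9-c-Kit- replicate 3 or MA9-c-Kit+ replicate 2 (adjusted p from 0.0658 to 0.143), and without MA9-c-Kit- replicate 3 the difference was 1.79 (adjusted p = 0.00393). Slc3a2, the heavy chain that carries Slc7a5, Slc7a6 and Slc7a7 to the membrane, ranged from 53.2 to 94.5 TPM and did not pass in any comparison. In TPM the heavy chain was 1.34 to 5.24 times Slc7a5, with the largest ratio in MA9-c-Kit- replicate 1.

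The other 7 tested transporters passed in no comparison. Slc1a5, the carrier of glutamine, had the smallest adjusted p of these, ranging from 68.6 to 136 TPM without overlap between MA9-c-Kit- cells and either c-Kit+ group, with log2 differences of 0.81 in MA9-c-Kit+ (adjusted p = 0.000585, limma) and 0.69 in MA9-IL-34 cells (adjusted p = 0.000702, limma). Slc38a2, a sodium-coupled carrier of neutral amino acids and a known target of Atf4, ranged from 64.8 to 199.9 TPM, with a log2 difference of -0.96 in MA9-IL-34 relative to MA9-c-Kit- cells (adjusted p = 0.0127, limma), just under the fold of 2. With median scaling, or without MA9-c-Kit- replicate 2 or 3 or MA9-IL-34 replicate 1, it passed. Slc38a1, from the same family, was at 44.1 to 62.8 TPM, and Slc36a1, which carries amino acids out of lysosomes, at 35.8 to 67.0 TPM. Low levels were listed for Slc7a8, another carrier of large neutral amino acids (2.09 to 8.22 TPM), and Slc43a1, a carrier of branched-chain amino acids (0.13 to 2.16 TPM). Slc43a1 had a log2 difference of 0.91 in MA9-c-Kit+ relative to MA9-c-Kit- cells (adjusted p = 0.0224, limma), close to the fold of 2, and passed with a pseudocount of 0.1 or 0.5 or without MA9-c-Kit- replicate 3. Slc7a8 passed in MA9-IL-34 cells with a pseudocount of 0.1 or without that library. Slc7a11, the cystine importer that Atf4 induces in many stressed cells, stayed at or below 0.31 TPM, and Slc1a4, a carrier of serine and alanine, at or below 0.56 TPM.

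**Figure D3:**
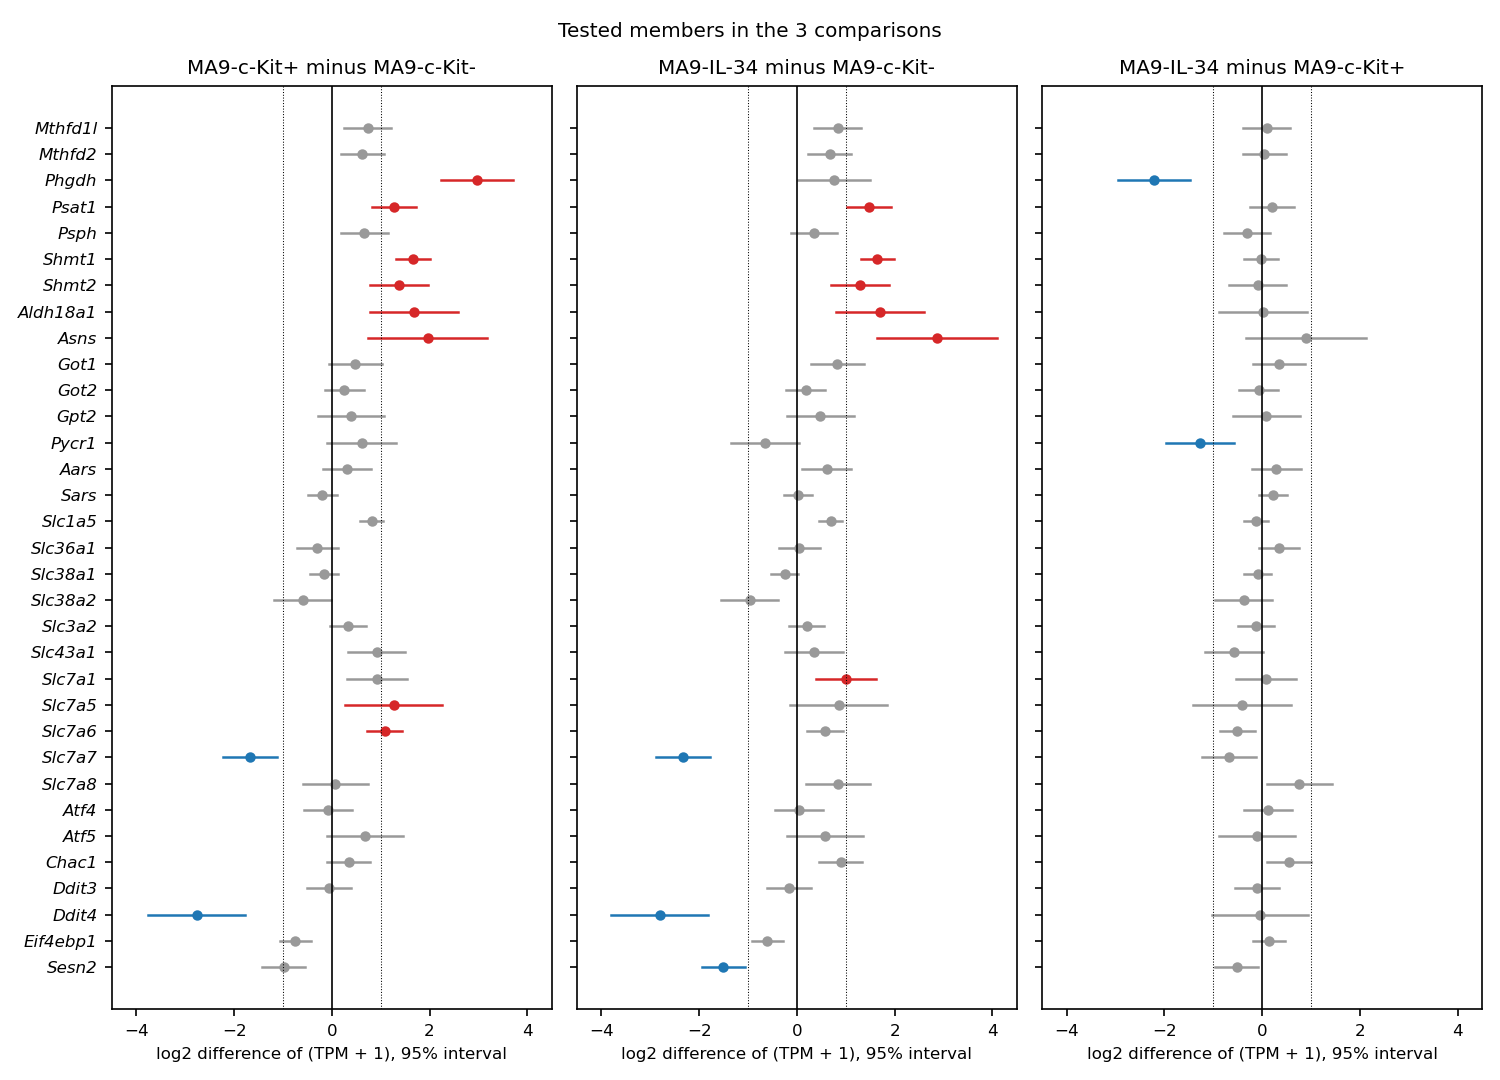
Log2 difference of TPM + 1 (x axis) with its 95% interval (limma) for the 33 tested members (y axis), ordered by role, in the 3 comparisons. Red points were higher and blue points lower at a fold of 2 or more (dotted lines) with an adjusted p under 0.05, grey points did not pass. In MA9-IL-34 relative to MA9-c-Kit+ cells Phgdh and Pycr1 were the 2 called members, both lower.

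The factors at the head of the response did not pass the test, and both stress effectors that passed were lower in c-Kit+ cells. Atf4 (ENSMUSG00000042406, chromosome 15 from 80255184 to 80257541) was at 277, 348 and 187 TPM in MA9-c-Kit-, 299, 227 and 224 TPM in MA9-c-Kit+ and 244, 299 and 272 TPM in MA9-IL-34 replicates 1, 2 and 3, and it was chosen for this full account after its values were seen. The ranges of the groups overlapped. Its log2 differences were -0.08 (95% interval -0.57 to 0.41) in MA9-c-Kit+ and 0.05 (-0.44 to 0.53) in MA9-IL-34 relative to MA9-c-Kit- cells, and 0.13 (-0.36 to 0.61) in MA9-IL-34 relative to MA9-c-Kit+ cells. Atf5, a related factor, ranged from 10.8 to 36.7 TPM and Ddit3, which encodes the stress factor CHOP, from 13.3 to 20.4 TPM, and neither passed, although Atf5 was called in MA9-c-Kit+ cells without replicate 2 of that group. Trib3, a feedback inhibitor of Atf4, was at or below 0.99 TPM.

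Ddit4 and Sesn2, both of which restrain mTORC1, were the called members of this group. Ddit4 (ENSMUSG00000020108, chromosome 10 from 59949669 to 59951834) was at 206, 78.5 and 91.3 TPM in MA9-c-Kit-, 26.8, 11.4 and 13.1 TPM in MA9-c-Kit+ and 9.84, 22.2 and 16.6 TPM in MA9-IL-34 replicates 1, 2 and 3. Every c-Kit+ library lay below every MA9-c-Kit- library. The mean was 7.34-fold lower in MA9-c-Kit+ (log2 difference -2.77, adjusted p = 0.00153, limma) and 7.73-fold lower in MA9-IL-34 cells (log2 difference -2.81, standard error 0.44, adjusted p = 0.000775, limma), with -0.04 between them (95% interval -1.03 to 0.95). Sesn2, a sensor of leucine, was at 14.3, 11.8 and 10.2 TPM in MA9-c-Kit-, 6.17, 5.88 and 4.73 TPM in MA9-c-Kit+ and 4.55, 3.14 and 3.16 TPM in MA9-IL-34 replicates 1, 2 and 3. The groups did not overlap in any pair. In MA9-IL-34 cells its mean was 3.34-fold lower than in MA9-c-Kit- cells (log2 difference -1.50, standard error 0.19, adjusted p = 0.000256, limma), and its difference of -0.98 in MA9-c-Kit+ cells lay just under the fold of 2 (adjusted p = 0.00425, limma) and was called with a pseudocount of 0.1 or 0.5, with median scaling, or without MA9-c-Kit- replicate 3 or MA9-c-Kit+ replicate 1 or 2. Ddit4 is also induced by glucocorticoids and other stress, and 10 genes that respond to handling of cells, such as Fos and Egr1, summed to 3829, 2526 and 1082 TPM in MA9-c-Kit-, 1862, 1073 and 413 TPM in MA9-c-Kit+ and 333, 807 and 833 TPM in MA9-IL-34 replicates 1, 2 and 3. Within each group the library with the highest Ddit4 and that with the highest sum were the same in both MA9 groups and not in MA9-IL-34 cells. Of these 10 genes 2 fell in MA9-c-Kit+ and 5 in MA9-IL-34 relative to MA9-c-Kit- cells (limma), beside 9.15% and 12.7% of all genes. Their part in the result was not tested.

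Eif4ebp1, the inhibitor of cap-dependent translation that Atf4 induces, ranged from 33.5 to 77.9 TPM and lay below MA9-c-Kit- cells in every c-Kit+ library, with log2 differences of -0.75 in MA9-c-Kit+ (adjusted p = 0.0035, limma) and -0.61 in MA9-IL-34 cells (adjusted p = 0.00635, limma) that stayed under the fold of 2. Chac1, which degrades glutathione, was between 0.23 and 1.98 TPM, lowest in MA9-c-Kit- and highest in MA9-IL-34 cells, with a log2 difference of 0.89 between these (adjusted p = 0.00491, limma, fold under 2). At such levels the log2 of TPM + 1 understates the fold, and with a pseudocount of 0.1 or 0.5 Chac1 passed. Aars and Sars, which charge tRNA with alanine and serine, ranged from 25.3 to 51.0 and from 66.4 to 101.6 TPM. Aars differed by 0.61 in MA9-IL-34 relative to MA9-c-Kit- cells (adjusted p = 0.0439, limma, fold under 2), and Sars did not pass. Exons of Aars overlap those of Exosc6 on the same strand over 1326 bases. Exosc6 was at 1.29 to 28.0 TPM, and its part in the values of Aars was not tested.

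Members varied more between libraries of MA9-c-Kit- cells than genes in general. The median coefficient of variation over the 33 members was 27.8% in MA9-c-Kit-, 20.8% in MA9-c-Kit+ and 8.63% in MA9-IL-34 cells, beside 18.3%, 20.7% and 10.2% over all tested genes. MA9-c-Kit- replicate 3 held the highest value of its group for 19 of the 33 members, where it did so for 36.4% of all genes, and replicate 1 held the lowest for 16, beside 27% of all genes. In MA9-c-Kit+ cells replicate 3 was highest for 17 members (29.1% of all genes) and replicate 2 lowest for 18 (33.1% of all genes). Slc7a5, Asns and Aldh18a1 were members with such a spread. The erythroid genes were highest in replicate 3 of both MA9 groups, and the handling genes were lowest there. Genes of dividing cells were lowest in replicate 1 of both. The part of these in the spread of the members was not tested.

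Genes around the members were counted in lists that do not contain them, and a gene that reached 1 TPM in the libraries of 1 group only was left out of these counts. Over all genes with the same exception, 5.74% rose and 8.21% fell in MA9-c-Kit+ against MA9-c-Kit- cells. In MA9-IL-34 against MA9-c-Kit- cells these shares were 10.8% and 11.7%, and the counts of every list below stand beside them. Of 9 tested among 15 other targets of the integrated stress response, 6 fell and 0 rose in each comparison with MA9-c-Kit- cells (0 rose also at an unadjusted p under 0.05, limma), and 0 passed between the c-Kit+ groups (2 higher and 2 lower at an unadjusted p under 0.05). Nupr1, a stress cofactor, was at 18.3 ± 1.97 TPM in MA9-c-Kit-, 1.90 ± 1.74 TPM in MA9-c-Kit+ and 0.480 ± 0.380 TPM in MA9-IL-34 cells. Atf3, a factor that also responds to handling, was at 21.6 ± 18.1, 1.34 ± 1.43 and 0.337 ± 0.244 TPM in the same order. Cebpb, a partner of Atf4 and a factor of myeloid maturation, was at 212 ± 148, 39.6 ± 14.7 and 45.6 ± 19.3 TPM. Map1lc3b and Sqstm1, which serve autophagy, averaged 114 ± 16.5 and 192 ± 33.8 TPM in MA9-c-Kit-, 58.5 ± 5.18 and 92.6 ± 14.3 TPM in MA9-c-Kit+, and 47.1 ± 2.19 and 125 ± 2.44 TPM in MA9-IL-34 cells. Map1lc3b was called in MA9-IL-34 and Sqstm1 in MA9-c-Kit+ cells. In MA9-c-Kit+ cells 2 instead of 6 of these genes passed without MA9-c-Kit- replicate 1 or MA9-c-Kit+ replicate 3.

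Folate and glycine enzymes outside the members moved in the direction of Shmt1 and Shmt2. Of 16 tested, 5 rose in MA9-c-Kit+ and 8 in MA9-IL-34 relative to MA9-c-Kit- cells (4 of these 8 without MA9-c-Kit- replicate 1), and 0 fell (limma, 0 and 1 at an unadjusted p under 0.05). Gart and Atic, enzymes of purine synthesis that use carbon from folate, averaged 40.3 ± 8.80 and 45.3 ± 6.98 TPM in MA9-c-Kit-, 104 ± 4.45 and 101 ± 7.89 TPM in MA9-c-Kit+, and 85.4 ± 4.76 and 91.1 ± 6.65 TPM in MA9-IL-34 cells. Sfxn1, the mitochondrial importer of serine, was at 22.9 ± 8.64, 60.4 ± 6.06 and 67.3 ± 2.72 TPM. Aldh1l1, which burns formyl folate, was the gene of this list called between the c-Kit+ groups, at 7.22 ± 1.83 TPM in MA9-IL-34 and 2.17 ± 1.15 TPM in MA9-c-Kit+ cells (log2 difference 1.43, adjusted p = 0.017, limma), and not called without MA9-IL-34 replicate 1 or 3, with no filter on low values, or with the replicate block on these groups alone. Genes of dividing cells, given above, were higher in the same comparisons, and their part was not tested.

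Other enzymes of amino acid metabolism were split. Of 17 compared, 4 rose and 2 fell in MA9-c-Kit+ cells, 5 rose and 2 fell in MA9-IL-34 cells, both relative to MA9-c-Kit- cells, and 0 passed between these groups (2 higher and 1 lower at an unadjusted p under 0.05, limma). Without MA9-c-Kit- replicate 1 the counts in MA9-c-Kit+ cells were 2 and 1, without MA9-c-Kit- replicate 2 or 3 the fallen genes were 0 and 1, and without MA9-c-Kit+ replicate 2 or with the replicate block 1 fell. Prodh, which breaks proline down, was at 6.36 ± 1.34 TPM in MA9-c-Kit-, 27.3 ± 6.42 TPM in MA9-c-Kit+ and 37.8 ± 6.53 TPM in MA9-IL-34 cells, with a log2 difference of 2.40 in the last (adjusted p = 2.93e-05, limma). Pycrl, the cytosolic reductase beside Pycr1, was at 13.2 ± 2.31, 28.7 ± 7.40 and 37.8 ± 5.70 TPM, with its highest mean in MA9-IL-34 cells, where Pycr1 had its lowest. Pycr1 in MA9-IL-34 relative to MA9-c-Kit- cells did not pass (log2 difference -0.66, adjusted p = 0.106, limma). Pycrl did not pass between the c-Kit+ groups. Odc1, the first enzyme of polyamine synthesis, was at 58.6 ± 25.5, 152 ± 8.89 and 180 ± 11.6 TPM, and Gpt, the cytosolic alanine transaminase, at 3.94 ± 0.177, 7.71 ± 1.74 and 12.6 ± 1.05 TPM, called in MA9-IL-34 cells. Arg2, the mitochondrial arginase, averaged 2.18 ± 1.41 TPM in MA9-c-Kit- cells. It reached 1 TPM only there, passed the filter through the group in which it was high, and was not counted.

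Among 24 other transporters 13 were compared. Beside the shares of all genes given above, 1 rose and 2 fell both in MA9-c-Kit+ and in MA9-IL-34 relative to MA9-c-Kit- cells. These counts moved with single libraries: in MA9-IL-34 cells 1 fell without replicate 1 or 2 of either group compared, and 0 rose without MA9-c-Kit- replicate 2 or without its own replicate 3, while in MA9-c-Kit+ cells 1 fell without MA9-c-Kit- replicate 3 or without its own replicate 2. Slc15a3, a lysosomal carrier of peptides and histidine in macrophages, was at 26.6 ± 2.94, 0.463 ± 0.257 and 0.0567 ± 0.0635 TPM, and it too passed the filter through MA9-c-Kit- cells alone and was not counted. Slc43a2, a carrier of branched-chain amino acids, was at 39.8 ± 19.0, 13.1 ± 1.95 and 13.7 ± 1.59 TPM, and Slc36a2, a proton-coupled carrier, at 0.383 ± 0.0808, 3.04 ± 0.582 and 1.29 ± 0.375 TPM. Slc25a12, the mitochondrial carrier of aspartate and glutamate, was the transporter called between the c-Kit+ groups, at 109 ± 8.91 TPM in MA9-IL-34 and 53.0 ± 6.03 TPM in MA9-c-Kit+ cells (log2 difference 1.03, adjusted p = 0.000561, limma), with 53.6 ± 3.84 TPM in MA9-c-Kit- cells, from which MA9-IL-34 cells also differed (1.01, adjusted p = 0.000148, limma). Both folds were close to 2, and that between the c-Kit+ groups was no longer called without replicate 3 of either group or with scaling of each library to the median. The other call did not hold without MA9-c-Kit- replicate 2 or 3, without MA9-IL-34 replicate 3 or with the same scaling. Slc7a2, a carrier of cationic amino acids, reached 1 TPM only in MA9-IL-34 cells (1.61 ± 0.373 TPM), passed the filter through them and was not counted.

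Enzymes that charge tRNA and genes that sense amino acids were mostly under the fold of 2. Of 18 other cytosolic tRNA synthetases, 0 passed in MA9-c-Kit+ and 2 rose in MA9-IL-34 relative to MA9-c-Kit- cells, Farsa (148 ± 4.76 and 63.9 ± 9.54 TPM) and Dars (130 ± 4.27 and 62.2 ± 3.62 TPM), while 14 and 15 were higher and 0 lower at an unadjusted p under 0.05 (limma), a rule by which 24.6% and 30.3% of all genes were higher and 22.9% and 26.1% lower. Their median log2 differences were 0.56 and 0.53. Of 17 mitochondrial synthetases, 3 rose in MA9-c-Kit+ and 2 in MA9-IL-34 cells, Ears2 and Yars2 in both, with 11 and 11 higher and 0 lower at an unadjusted p under 0.05. Ears2 was at 3.62 ± 1.30, 9.93 ± 0.984 and 12.3 ± 0.710 TPM. Without MA9-c-Kit+ replicate 2, 1 of the 3 passed in MA9-c-Kit+ cells. In MA9-IL-34 cells the calls of Dars and Yars2 did not hold with median scaling. That of Yars2 was also lost without MA9-IL-34 replicate 3. Of 13 genes of eIF2 kinases, eIF2B and the eIF2 phosphatase, 0 passed in any comparison (limma), and at an unadjusted p under 0.05 there were 5 higher with 4 lower in MA9-c-Kit+, 5 with 3 in MA9-IL-34 relative to MA9-c-Kit- cells, and 2 with 0 between the c-Kit+ groups. Of 17 ER chaperones and genes of the unfolded protein response, Calr, the calcium-binding chaperone, rose in both c-Kit+ groups (624 ± 93.3, 1431 ± 380 and 1659 ± 159 TPM), in MA9-c-Kit+ cells under the fold of 2 without replicate 2 of that group (log2 difference 0.97). None of the others passed with all libraries.

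Of 21 tested genes of amino acid sensing by mTORC1, 0 rose and 3 fell in MA9-c-Kit+ and 2 rose and 4 fell in MA9-IL-34 relative to MA9-c-Kit- cells, with 2 and 5 higher and 8 and 9 lower at an unadjusted p under 0.05 (limma). The risen genes were 1 in number without any single library of the last 2 groups. Rraga, the Rag GTPase that recruits mTORC1 to lysosomes, was at 52.9 ± 1.78, 23.8 ± 5.07 and 25.5 ± 0.632 TPM, and Slc38a9, the lysosomal sensor of arginine, at 39.3 ± 7.64, 19.4 ± 5.22 and 12.2 ± 1.98 TPM. Fnip2, a partner of folliculin, was at 12.7 ± 3.13, 4.46 ± 0.802 and 4.89 ± 0.750 TPM. Lamtor2, a subunit of the Ragulator scaffold on lysosomes, moved the other way in MA9-IL-34 cells, at 192 ± 15.8 TPM against 73.8 ± 4.69 TPM in MA9-c-Kit- cells.

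**Figure D4:**
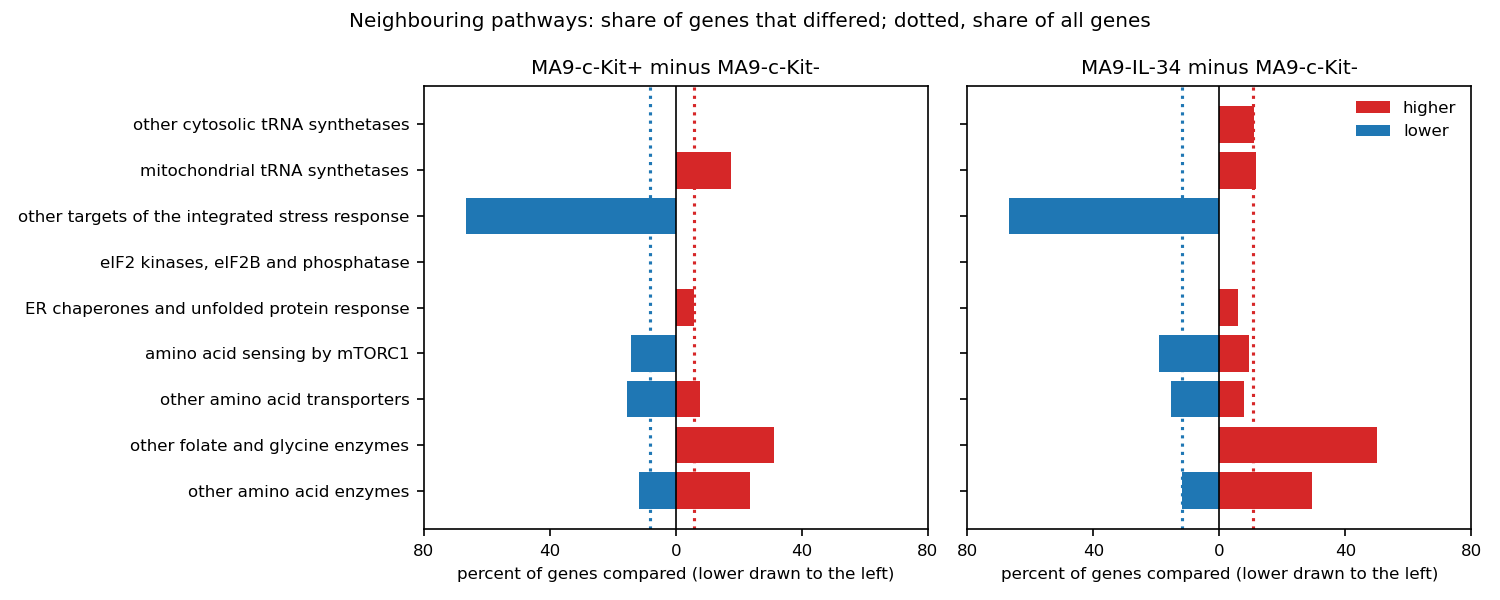
Percent of the genes of each surrounding list (y axis), without those that reached 1 TPM in 1 group only, that were higher (red, to the right) or lower (blue, to the left) at a fold of 2 or more with an adjusted p under 0.05, for MA9-c-Kit+ and for MA9-IL-34 cells, both relative to the same MA9-c-Kit- libraries. Dotted lines are the percent over all genes tested with the same exception, 5.74% and 8.21% for MA9-c-Kit+ and 10.8% and 11.7% for MA9-IL-34 cells. Other targets of the integrated stress response were called lower only, and folate and glycine enzymes higher only.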

How the data were processed

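TruSeq RNA v2 libraries of the 3 sorted populations were sequenced. The table that the authors deposited lists 55536 Ensembl genes and names no unit. Each library in it sums to 977577 to 988051, so the deposited values were read as TPM. The aligner, annotation and genome build are not given in the sources used here. Read counts were not used, so depth is unknown and no counting interval is given. In the column for MA9-c-Kit- replicate 3 the minus sign is missing, and it was assigned by its number.

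Tests were run on log2(TPM + 1) of genes that reached 1 TPM in 3 or more libraries. limma 3.58.1 under R 4.3.3 fitted 3 group means over the 9 libraries with a prior variance that follows the mean level, and adjustment for all genes tested was by Benjamini and Hochberg, separately for the 3 comparisons. Calls needed a fold of 2 or more with an adjusted p under 0.05, thresholds taken from the study's methods, which describe a microarray for these cells, while the labels describe sequencing. The fit was tested on simulated data. Coordinates are from GENCODE M21 on GRCm38 by identifier.

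The members and lists were chosen with earlier results of these data known. Called members are given in every library, others by range, and of each surrounding list up to 3 called genes per comparison with the smallest p are named, of which 1 is not reported here. Deviations of same-numbered libraries of the MA9 groups from their group means correlated over genes at 0.202, 0.239 and 0.443, all over 0.1. Libraries of different numbers were at -0.324 to 0.159, so MA9-c-Kit- replicate 1 with MA9-c-Kit+ replicate 2 was over 0.1 as well. The numbers were taken to pair the libraries of these groups, a pairing read from the data itself that the main fit does not use. The fit with the replicate block changed no call of a member between the MA9 groups. Alternatives were another filter, pseudocounts of 0.1 and 0.5, only the groups compared, the replicate block, median scaling, no minimum fold, and each library left out in turn. Those for the surrounding lists were added after seeing the data.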

Additional observations from a re-analysis of the deposited data

How the results depend on the processing

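Of the members called, no direction turned in any of the 18 alternatives of each comparison. In MA9-IL-34 relative to MA9-c-Kit+ cells, 1 in place of 2 members were lower with no filter (Pycr1 at an adjusted p of 0.0691, limma) and with the replicate block on these groups alone (Pycr1 at 0.0551), and 1 to 2 when each library was left out. With an adjusted p under 0.05 and no minimum fold, 14 members were higher and 5 lower in MA9-IL-34 cells (26.6% and 23.4% of all genes) and 14 higher with 4 lower in MA9-c-Kit+ cells (19.3% and 19%), both relative to MA9-c-Kit- cells. Other lost calls were Slc7a1 in MA9-IL-34 cells with median scaling (log2 difference 0.95), and in MA9-c-Kit+ cells Asns and Slc7a5 with no filter (adjusted p of 0.055 and 0.113) or with only the 6 libraries compared (0.0579 and 0.106) and Slc7a5 with median scaling (0.0599). The replicate block changed no other call of a member. MA9-IL-34 libraries share only a number with the others (correlations of deviations from -0.279 to -0.000871). Counts of the surrounding lists rose without a minimum fold, to 12 and 13 of the 18 cytosolic and 10 and 11 of the 17 mitochondrial tRNA synthetases higher in MA9-c-Kit+ and MA9-IL-34 against MA9-c-Kit- cells, beside the same shares of all genes. With 3 libraries a group, unknown depth and no statement of separate mice, differences near a fold of 2 are the least certain, and values under 1 TPM are uncertain in all groups.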
